A study of Mus musculus with 6 samples.

Results

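The genes described here are 10 chemokine genes of helper T cells, namely Ccl3, Ccl4, Ccl5, Ccl17, Ccl20, Ccl22, Cxcl9, Cxcl10, Cxcl11 and Xcl1, taken by name from the 41388 genes of an RNA-Seq table. RNA was sequenced from 3 WT and 3 Irf1-/- samples of mouse T cells of the C57BL/6 background, which came from spleen and lymph nodes by negative magnetic selection and which the paper's RNA-Seq methods describe as naive CD4+ T cells. All 6 samples were kept for 2 days under conditions that drive Th9 cells (helper T cells known for IL-9), with IL-2, IL-4, TGF-β and IFN-γ. In the paper's general culture method, antibodies to CD3 and CD28 activate the T cells. That method also adds an antibody to mouse IFN-γ, and the IFN-γ supplied is of the rat. Irf1-/- mice lack the transcription factor IRF1, which IFN-γ induces, in every cell of the body. No culture without IFN-γ was part of the comparison, so that the data show the effect of genotype in cells exposed to IFN-γ and not the effect of IFN-γ. The paper describes the samples as independent biological ones.

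Chemokines are small secreted proteins that draw leukocytes along a gradient by binding G-protein-coupled receptors. CCL3, CCL4 and CCL5 are inflammatory chemokines that activated T cells make and that attract monocytes and T cells. CCL17 and CCL22 bind CCR4, a receptor of helper T cells of the Th2 type, and CCL20 is the ligand of CCR6. CXCL9, CXCL10 and CXCL11 bind CXCR3 and are classical products of cells exposed to IFN-γ, including macrophages and stromal cells. XCL1 binds XCR1 on cross-presenting dendritic cells.

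The promoter letters of 4 of these genes are shown because they set the CXCR3 ligand genes, which had almost no reads, beside a pair of genes with reads. The promoter table of RefSeq (GRCm38.p6) held 7 of the 10 genes, with Ccl4, Ccl5 and Cxcl11 unmatched. Each line gives the 250 bases before the start site, 5′ to 3′ on the strand of the gene, and capitals mark matches on either strand to the interferon-stimulated response element core GAAANNGAAA, the STAT site TTCNNNGAA, the STAT6-type site TTCNNNNGAA or the NF-κB-type site GGGNNNNNCC. Cxcl10 lies on the - strand at chr5:92348890-92349139, Cxcl9 on the - strand at chr5:92328080-92328329, Ccl20 on the + strand at chr1:83116516-83116765 and Ccl3 on the - strand at chr11:83649379-83649628.
Cxcl10: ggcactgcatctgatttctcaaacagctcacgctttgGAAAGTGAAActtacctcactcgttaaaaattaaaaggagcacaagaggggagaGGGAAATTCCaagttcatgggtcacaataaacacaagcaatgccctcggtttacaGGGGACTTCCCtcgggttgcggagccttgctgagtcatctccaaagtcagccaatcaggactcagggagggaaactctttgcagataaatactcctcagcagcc
Cxcl9: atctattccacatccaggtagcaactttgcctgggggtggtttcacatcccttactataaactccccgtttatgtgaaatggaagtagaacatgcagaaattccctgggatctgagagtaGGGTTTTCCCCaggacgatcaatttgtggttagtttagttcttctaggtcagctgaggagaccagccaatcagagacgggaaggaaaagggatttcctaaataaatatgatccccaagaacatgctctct
Ccl20: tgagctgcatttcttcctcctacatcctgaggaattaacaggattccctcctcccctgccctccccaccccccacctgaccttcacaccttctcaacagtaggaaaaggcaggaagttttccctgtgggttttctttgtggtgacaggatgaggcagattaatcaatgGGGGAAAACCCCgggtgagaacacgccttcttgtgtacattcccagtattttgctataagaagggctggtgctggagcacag
Ccl3: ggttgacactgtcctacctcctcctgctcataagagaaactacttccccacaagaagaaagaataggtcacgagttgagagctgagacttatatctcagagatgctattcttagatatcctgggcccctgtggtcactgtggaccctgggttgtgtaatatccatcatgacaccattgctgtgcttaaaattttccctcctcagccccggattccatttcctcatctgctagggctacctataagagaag
Of the 7 promoters, only that of Cxcl10 held the response element core, at bases -213 to -204 from the start, and 2.98% of the 32851 promoter windows of the table did so. Matches to the NF-κB type, present in 45.8% of all windows, were found in Cxcl10, Cxcl9, Ccl20 and Ccl22, and some of them overlapped each other. Ccl17 alone held the STAT site (7.02% of all windows) and the STAT6-type site (5.85%). No motif matched in Ccl3 or Xcl1. These matches describe letters and not bound sites.

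The targeted gene, Irf1 (ENSMUSG00000018899), had normalized counts of 2968, 2907 and 2660 in WT and 1780, 1729 and 1476 in Irf1-/- samples, so that reads on the gene remained in the Irf1-/- libraries. Values are normalized counts, in which the authors divided the reads of each gene by a size factor of the library. The libraries held 5639788 to 13348230 reads on genes, with replicate 3 the largest of either genotype, and 3 reads corresponded to a normalized count of 1.84 to 4.16. Summed T helper markers (Cd3e, Cd3d, Cd4) were at 6781 to 6840 in WT and 6246 to 6545 in Irf1-/- samples, lower without overlap. Cd4, the largest part of the sum, had a log2 fold change of -0.10 and was not called (adjusted p = 0.164 in limma). Cd3e was called lower, at -0.30 (adjusted p = 0.00535 in limma). The call was lost with replicates 1 and 2 of each genotype averaged (-0.27, adjusted p = 0.0950 in limma). Cd3d had 0.14 and was not called, although it was higher without overlap, at 1298 to 1390 in Irf1-/- against 1186 to 1266 in WT samples. Summed NK-cell markers were at 0 to 5.97, with Ncr1 and Klrb1c at 0. The CD8 T-cell markers Cd8a and Cd8b1 summed to 32.4 to 41.2 in WT and to 20.3 to 30.7 in Irf1-/- samples, lower without overlap as well. Taken singly, Cd8a and Cd8b1 overlapped between the genotypes, and Cd8b1 was not called (adjusted p = 0.175 in limma). The sums of both sets of T-cell markers, though not every gene in them, went in the direction of the 4 tested chemokine genes. The part of these markers in the chemokine values was not tested. B-cell markers were at 4.47 to 19.4 and dendritic-cell markers at 22.1 to 47.4. Libraries stood apart in 3 ways. Replicates 1 and 2 differed by more than counting noise, with a chi-square per degree of freedom of 1.28 in WT and 1.78 in Irf1-/- cells, but by less than either did from replicate 3 of its genotype, at 5.93 to 7.24. The 6 myeloid markers summed to 1029 in Irf1-/- replicate 2, whereas no other library was outside 41.5 to 232, and all 6 were highest there, although a naive CD4+ selection would remove myeloid cells. Y-linked transcripts summed to 2301 and 2306 in WT replicates 1 and 2 and to at most 11.1 in the other 4 libraries. Because these are bulk samples, fewer cells of a type and less RNA per cell cannot be told apart.

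The 10 genes fell into 3 tiers of expression. Ccl3, Ccl4, Ccl20 and Xcl1 had reads in every library and were the 4 that passed the minimum for testing, a mean of 10 normalized counts. Ccl5, Ccl17 and Ccl22 had 11, 17 and 35 reads over the 6 libraries together. The CXCR3 ligand genes were close to absent, with 4 reads for Cxcl9, 2 for Cxcl10 and 0 for Cxcl11 among 51000238 reads on genes.

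**Figure D1:**
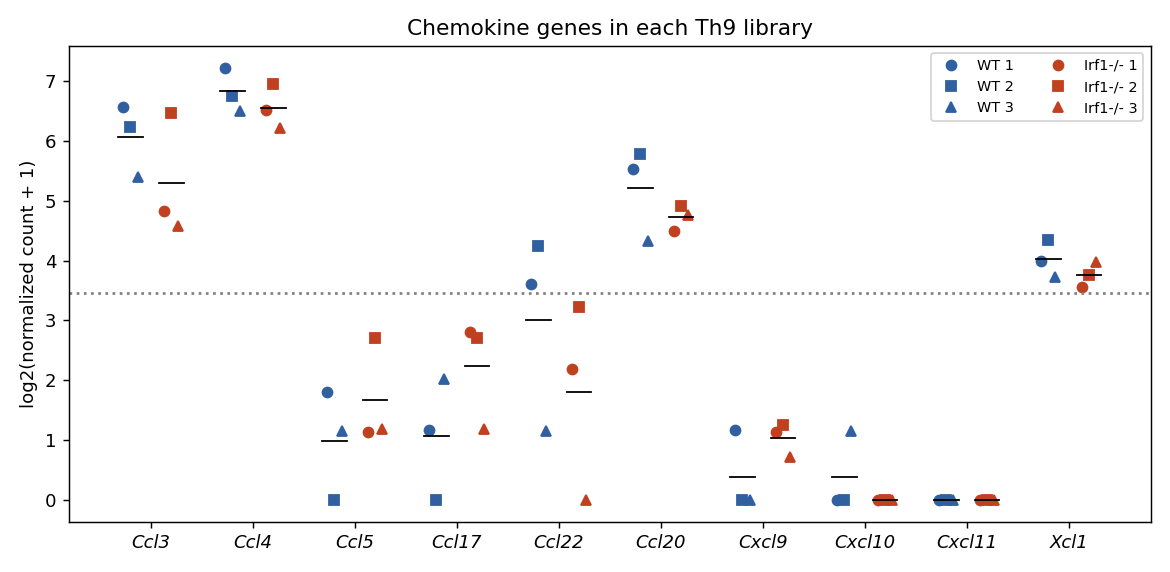
Normalized counts of the 10 genes on a log2 scale after adding 1, with 1 point per library (WT blue, Irf1-/- red, shapes for replicate numbers), a black bar at the mean of the 3 log2 values of each genotype and a dotted line at a normalized count of 10. Ccl3, Ccl4, Ccl20 and Xcl1 lie above the line in every library, Cxcl9, Cxcl10 and Cxcl11 lie at or near 0, and the genotypes overlap for each of the 10 genes.

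None of the 4 tested genes was called lower or higher in Irf1-/- cells at an adjusted p below 0.05 (limma, Benjamini-Hochberg over 11379 genes), and none had an unadjusted p below 0.05 in limma, edgeR or DESeq2. Over all genes tested, 12.4% were called lower and 11.4% higher. All 4 genes had a log2 fold change below 0, as did 5755 of the 11379 genes tested. The median was -0.38 in the 4 genes and -0.00 over all genes tested. Without WT replicates 1 and 2 the direction turned for Ccl4, Ccl20 and Xcl1. The genotypes were free of overlap in 0 of these 4 genes, against 40.5% of all genes tested. The 4 genes are weakly expressed, and the median standard error of their log2 fold changes was 0.326, against 0.226 in the 2773 tested genes with means in their range, 14.1 to 105, of which 143 were called lower and 331 higher.

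Among the genes of the inflammatory chemokines CCL3, CCL4 and CCL5, Ccl4 (ENSMUSG00000018930, chromosome 11 from 83662584 to 83664683 on the + strand) was the most highly expressed of the 10. Its normalized counts were 149, 107 and 89.1 in WT and 90.7, 122 and 72.9 in Irf1-/- samples. The ranges overlapped over most of their width, with means of 115 ± 30.5 (SD, n = 3) for WT cells and of 95.2 ± 24.9 (SD, n = 3) for the Irf1-/- genotype. The log2 fold change was -0.27 (standard error 0.217, 95% interval -0.75 to 0.21, adjusted p = 0.412 in limma). It was -0.068 without WT replicate 1, -0.093 without Irf1-/- replicate 3, -0.46 without Irf1-/- replicate 2, -0.43 without WT replicate 3 and 0.062 with Y-linked transcripts as a covariate, and the gene was not called in any of these.

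Ccl3 (ENSMUSG00000000982, chromosome 11 from 83647844 to 83649355 on the - strand), the neighbour of Ccl4 and an attractant of monocytes and T cells, was at normalized counts of 93.6, 74.5 and 41.2 in WT samples and 27.5, 87.4 and 23.0 in Irf1-/- samples. Irf1-/- replicates 1 and 3 were below every WT sample, and Irf1-/- replicate 2 was above 2 of the 3. The means were 69.8 ± 26.5 (SD, n = 3) and 45.9 ± 35.9 (SD, n = 3), and the log2 fold change was -0.77 (standard error 0.448, 95% interval -1.76 to 0.22, adjusted p = 0.243 in limma). Without Irf1-/- replicate 2, the library with the highest myeloid markers, the log2 fold change was -1.36 and the gene was called lower (adjusted p = 0.0260 in limma). The part of myeloid cells in this value was not tested. In the other direction, the value was -0.42 without Irf1-/- replicate 3, -0.52 without WT replicate 1 and -0.10 with Y-linked transcripts as a covariate (adjusted p = 0.523, 0.534 and 0.933 in limma). With replicates 1 and 2 only, the value was -0.75 and the adjusted p 0.0172 in limma, although Irf1-/- replicate 2 lay between the WT values. That fit used an SD of 0.257 drawn mostly from all genes in place of the gene's own 0.833. Its WT libraries were the ones with Y-linked transcripts, so genotype and the Y-linked level cannot be told apart in it.

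Read as a share of Ccl4, Ccl3 stood at 63.0%, 69.7% and 46.2% in the WT libraries. In Irf1-/- libraries the share was 30.3%, 71.6% and 31.6%, so that replicates 1 and 3 were below every WT library. Irf1-/- replicate 2, with 63 reads for Ccl3 and 88 for Ccl4, was at the level of WT replicate 2, with 62 and 89. How reads matching both of these related genes were counted was not given in the sources used here.

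Ccl5, whose product RANTES is typical of memory and cytotoxic T cells (chromosome 11 from 83525778 to 83530518, - strand), had only 4 reads in WT and 7 in Irf1-/- libraries. The normalized counts were 2.50, 0 and 1.23 in WT and 1.19, 5.55 and 1.28 in Irf1-/- samples. Irf1-/- replicate 2 was the only library above 3 reads. The ratio of Irf1-/- to WT reads, after scaling by the summed size factors of the libraries, was 1.83, with an exact 95% interval of 0.464 to 8.51 that covers counting error only.

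Ccl20 (ENSMUSG00000026166, chromosome 1 from 83116766 to 83119167, + strand), the gene for the CCR6 ligand, had normalized counts of 44.9, 54.1 and 19.1 in WT and 21.5, 29.1 and 26.2 in Irf1-/- samples. WT replicates 1 and 2 were above all Irf1-/- samples, and WT replicate 3 was below them. The means were 39.4 ± 18.2 (SD, n = 3) and 25.6 ± 3.85 (SD, n = 3), giving a log2 fold change of -0.49 (standard error 0.345, 95% interval -1.25 to 0.28, adjusted p = 0.345 in limma). Without WT replicate 2 the value was -0.20 (adjusted p = 0.757 in limma), and without WT replicate 3 the gene was called lower, at -0.93 (adjusted p = 0.0164 in limma). It was called lower as well with replicates 1 and 2 only, at -0.95 (adjusted p = 0.00613 in limma), whereas in the pair of replicate 3 libraries the difference was 0.44 in the other direction. The samples that differed in direction also differed in Y-linked transcripts, which WT replicates 1 and 2 held and WT replicate 3 did not. In a fit with Y-linked transcripts as a covariate the log2 fold change of Ccl20 was 0.40 (adjusted p = 0.478 in limma), a value that rests on WT replicate 3 alone for the comparison of genotypes. Library size and the Y-linked level cannot be told apart among the WT samples. Both fits that called Ccl20 kept only WT libraries with Y-linked transcripts, which the Irf1-/- libraries almost lacked. In those fits genotype and the Y-linked level cannot be told apart.

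Xcl1 (ENSMUSG00000026573, chromosome 1 from 164931644 to 164935527, - strand), which encodes lymphotactin and overlaps the gene model Gm20743, had normalized counts of 15.0, 19.2 and 12.3 in WT and 10.7, 12.5 and 14.7 in Irf1-/- samples. The ranges overlapped, and the means were 15.5 ± 3.50 (SD, n = 3) and 12.6 ± 1.98 (SD, n = 3). The log2 fold change was -0.26 (standard error 0.306, 95% interval -0.94 to 0.41, adjusted p = 0.577 in limma). Leaving out 1 library gave -0.41 to -0.11, with 0.24 in the pair of replicate 3 libraries and 0.03 in the fit with the Y-linked covariate.

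**Figure D2:**
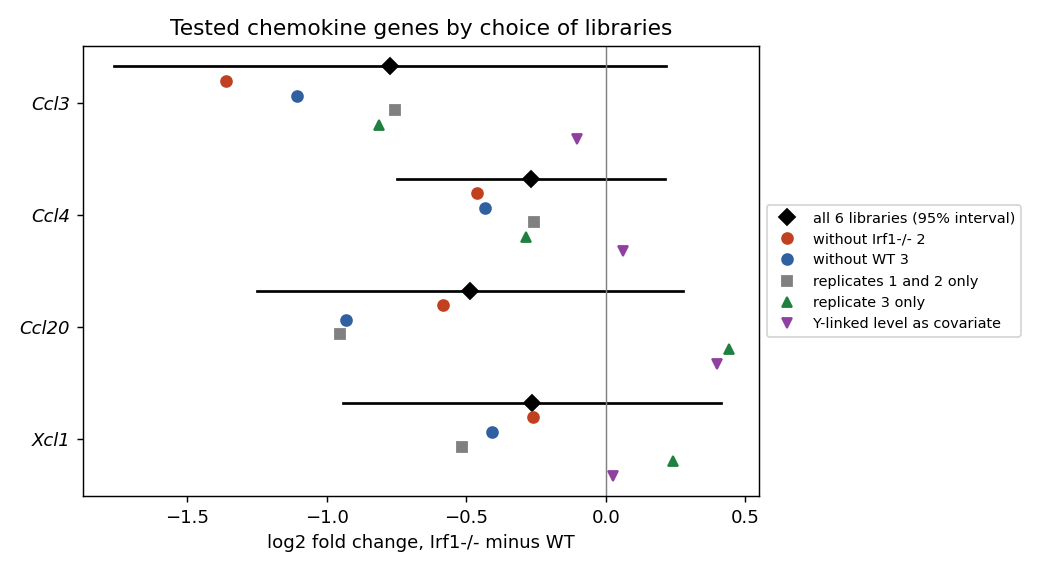
Log2 fold changes (Irf1-/- minus WT) of the 4 tested genes, with the fit on all 6 libraries as black diamonds and 95% intervals as lines, and the values after leaving out or selecting libraries as coloured symbols. The 4 black intervals all cross 0, Ccl3 stays below 0 throughout and falls to -1.36 without Irf1-/- replicate 2, and Ccl20 spans -0.95 to 0.44.

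Per kilobase of exon, which allows levels of different genes to be compared, the normalized count in WT cells was 174 ± 46.2 for Ccl4, 91.1 ± 34.6 for Ccl3, 29.6 ± 6.69 for Xcl1 and 27.7 ± 12.8 for Ccl20 (SD, n = 3). The order was the same in Irf1-/- cells, at 144 ± 37.7, 60.0 ± 46.9, 24.2 ± 3.79 and 18.0 ± 2.71 (SD, n = 3). That order is of the means. Ccl20 was above Xcl1 in WT replicates 1 (31.6 against 28.6) and 2 (38.1 against 36.8), and below it in WT replicate 3 (13.4 against 23.5). Ccl4 and Ccl3 overlapped in Irf1-/- cells. In RPM, which scales reads to the total of reads on genes in a library, the 10 genes together took 40.0, 34.3 and 20.5 in WT libraries and 20.6, 34.8 and 17.6 in Irf1-/- libraries. WT replicate 3 was thus at the level of Irf1-/- replicate 1, and Irf1-/- replicate 2 at that of WT replicate 2.

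The CCR4 ligand genes lie near each other on chromosome 8. Ccl22 (94745590 to 94751699, + strand) had normalized counts of 11.2, 18.0 and 1.23 in WT and 3.58, 8.32 and 0 in Irf1-/- samples. It was highest in WT replicates 1 and 2, and WT replicate 3 was below Irf1-/- replicates 1 and 2. The 26 reads in WT and 9 in Irf1-/- libraries gave a ratio of 0.361 (exact 95% interval 0.149 to 0.796 for counting error only), which does not cover the spread between samples. In a fit with no filter on low values, the log2 fold change was -1.20 (adjusted p = 0.445 in limma).

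Ccl17 (94810453 to 94812036, + strand) had normalized counts of 1.25, 0 and 3.07 in WT and 5.97, 5.55 and 1.28 in Irf1-/- samples. Irf1-/- replicates 1 and 2 were above the WT samples and Irf1-/- replicate 3 was not. The 6 and 11 reads gave a ratio of 1.91 with an exact 95% interval of 0.649 to 6.30 for counting error only, and the fit with no filter gave a log2 fold change of 1.17 (adjusted p = 0.297 in limma). No difference was detected in Ccl17, or in Ccl5, which had a log2 fold change of 0.69 in that fit (adjusted p = 0.586 in limma). The smallest difference that could be detected at this depth was not computed.

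The CXCR3 ligand genes lie in a row on chromosome 5, Cxcl9 from 92321347 to 92328079, Cxcl10 from 92346638 to 92348889 and Cxcl11 from 92359544 to 92365485, all on the - strand, and the last 2 overlap the gene Art3. Cxcl9 had 1 read in WT replicate 1 and 1 in each Irf1-/- library. Cxcl10, the gene with the response element core printed above, had 2 reads in WT replicate 3, a normalized count of 1.23, and 0 in the other 5 libraries. Cxcl11 had 0 reads in all 6, which allows up to 0.0588 RPM over all libraries together. Every library was at or under 3 reads for each of these genes, and no fold change is given for them. For the WT samples this bounds each gene at a normalized count of 3.74, 3.61 and 1.84 in replicates 1, 2 and 3, and for the Irf1-/- samples at 3.58, 4.16 and 1.92.

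Of the other 28 chemokine genes of the list, 12 were at 0 in all libraries, 13 were above 3 reads in at least 1 library and 5 were tested. Only Ccl1, the gene of the CCR8 ligand that activated T cells make, was called lower, with normalized counts of 41.2, 69.7 and 24.0 in WT and 20.3, 20.8 and 16.0 in Irf1-/- samples. It fell by 1.08 on the log2 scale (standard error 0.341, adjusted p = 0.0424 in limma), and the call was lost without Irf1-/- replicate 2 (-1.15, adjusted p = 0.0901 in limma), with replicates 1 and 2 of each genotype averaged (-0.97, adjusted p = 0.194 in limma) and once Y-linked transcripts were a covariate (-0.33, adjusted p = 0.626 in limma). Ccl1 shared with Ccl20 its high values in WT replicates 1 and 2. The median log2 fold change of the 5 tested genes was 1.39, a value set by 3 neutrophil attractants, Cxcl1, Cxcl2 and Cxcl3, which were named here after their values were seen. In Irf1-/- replicate 2 their normalized counts were 91.5, 220.5 and 112, against at most 24.0 in any other library. None was called, and their log2 fold changes of 1.40, 1.39 and 1.56 became -0.21, -0.13 and -0.17 without that library. Among the myeloid markers, Lyz2 at 559 and Cd14 at 334 were also highest in that library.

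**Figure D3:**
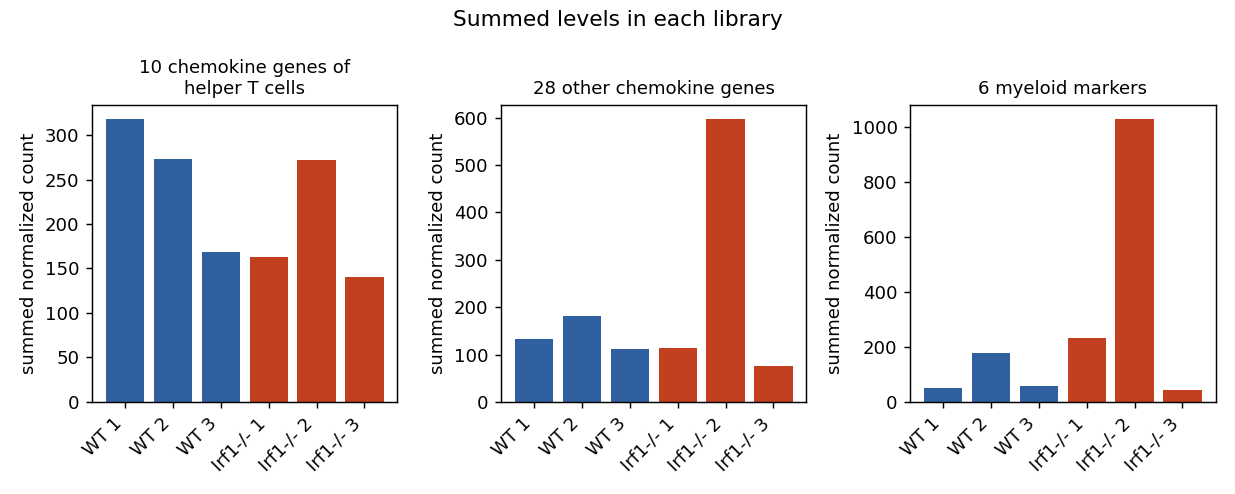
Summed normalized counts of the 10 helper T cell chemokine genes, of 28 other chemokine genes and of 6 myeloid markers, with 1 bar per library (WT blue, Irf1-/- red). Irf1-/- replicate 2 reaches 598 in the other chemokine genes and 1029 in the myeloid markers, above all other libraries, whereas its sum of 272 in the 10 genes is within the WT range of 168 to 318.

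Of 8 receptor genes of these ligands, 3 were tested. Ccr6, the gene of the CCL20 receptor, had normalized counts of 213, 221 and 137 in WT and 74.0, 80.4 and 65.2 in Irf1-/- samples, with every Irf1-/- sample below every WT sample. It fell by 1.34 on the log2 scale (standard error 0.181, adjusted p = 5.88e-04 in limma), and with Y-linked transcripts as a covariate, where WT replicate 3 alone stood for WT, the value was -0.90 (adjusted p = 0.00743 in limma). Ccr4, the receptor gene of the CCL17 and CCL22 ligands, was the most highly expressed, with 1746 to 1858 in WT and 1772 to 2035 in Irf1-/- samples which left a log2 fold change of 0.06 (adjusted p = 0.529 in limma). Cxcr3 had 70.7 to 112 in WT and 90.1 to 94.3 in Irf1-/- samples and a log2 fold change of 0.04 (95% interval -0.33 to 0.41, adjusted p = 0.887 in limma). Ccr1, a receptor gene for CCL3 and CCL5, was at 0 to 6.93 over all libraries, and Xcr1, the receptor gene for XCL1, was at 1 or 2 reads in each library.

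**Figure D4:**
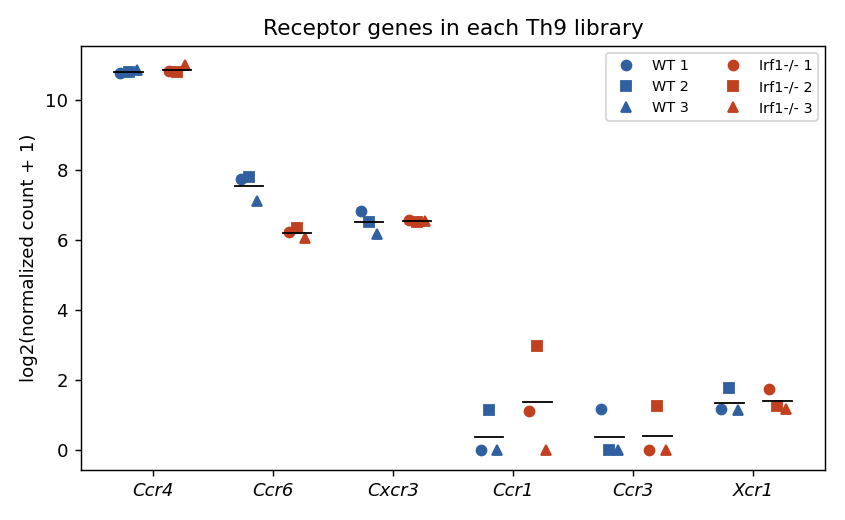
Normalized counts of 6 receptor genes on a log2 scale after adding 1, with 1 point per library (WT blue, Irf1-/- red, shapes for replicate numbers) and a black bar at the mean of the 3 log2 values of each genotype. The genotypes separate for Ccr6, at 137 to 221 against 65.2 to 80.4, and overlap for Ccr4 and Cxcr3, and Ccr1, Ccr3 and Xcr1 lie at or below 6.93.

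All 11 genes listed for the IFN-γ, IL-4 and NF-κB routes that act on chemokine genes were tested. The targeted gene Irf1 was called lower (log2 fold change -0.78, adjusted p = 7.32e-05 in limma), and Il4ra, a chain of the IL-4 receptor, was called higher, from 1455 to 2214 in WT and from 2542 to 3452 in Irf1-/- samples (0.77, adjusted p = 0.00569 in limma). In the fit with the Y-linked covariate the value of Il4ra was 0.37 and it was not called (adjusted p = 0.0834 in limma), nor was it at 0.74 with replicates 1 and 2 averaged (adjusted p = 0.0853 in limma). The other 9, among them Ifngr1, Jak2, Stat6, Nfkb1 and Rela, were not called with genotype as the only term. Nfkb1 had -0.21 in the fit with the Y-linked covariate (adjusted p = 0.0422 in limma), in which the comparison rests on WT replicate 3 alone.

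The genes with the pattern most like each of the 3 members with the highest mean normalized count, which is not corrected for length, by root mean square difference of centred log2 values over the 6 samples, were Drp2 (0.0595) and Sh2d5 (0.104) for Ccl4. For Ccl3 they were Dyrk4 (0.166) and Zfhx3 (0.247), and for Ccl20 they were Zfp551 (0.151) and Rnaset2a (0.176).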

How the data were processed

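RNA-Seq values of 3 WT and 3 Irf1-/- samples were compared, with groups taken from the labels. According to the submitters' processing notes, the authors used STAR 2.4.0b, featureCounts, DESeq2 1.12.3 and GRCm38. The deposited signal is a table of counts per Ensembl gene that the authors divided by a size factor of each library. All values were whole multiples of 1 step (within 0.02 reads), so that 100% of whole reads were recovered. Whether counting used strand was not given in the sources used here.

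The minimum for testing was a mean of 10 normalized counts, which 11379 of 41388 genes passed. The test was limma 3.58.1 (R 4.3.3), with eBayes and a mean-variance trend on log2(normalized count + 1), two-sided, with genotype as the only term and Benjamini-Hochberg adjustment at 0.05. Fold changes are on that scale, which understates changes of low genes. Alternatives were count tests of the recovered reads (edgeR 4.0.16, DESeq2 1.42.0), a pseudocount of 0.1 or 10, a minimum mean of 50 or none, quantile normalization, TMM factors, a replicate block, a fit without the trend, the Y-linked level as covariate, the smaller or larger libraries only and each library left out. The scripts were tested on simulated data. Groups at or under 3 reads per library were given as bounds, and intervals of 95% for reads are exact and cover counting error only. Coordinates came from GENCODE M21 for GRCm38.

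The 10 genes are all named. Genes of the other lists are named where called, where they are the receptor of a member or where a count needs them, and the 2 genes of most similar pattern are named for each of the 3 members with the highest mean. Withheld items are not reported here. The members and lists were chosen with earlier results of these data known.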

Additional observations from a re-analysis of the deposited data

How the results depend on the processing

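Over 20 alternatives to the fit, no member was called higher, and the number called lower was 0 in the fit on all 6 libraries. It was 2 with the smaller libraries only (Ccl3 and Ccl20), a fit that called 2085 of all genes lower against 1406, and ranged from 0 to 1 when each library was left out in turn, with Ccl20 called without WT replicate 3 and Ccl3 without Irf1-/- replicate 2. The fits with the smaller libraries only and without WT replicate 3 kept only WT libraries with Y-linked transcripts. With a replicate block, 1 member, Ccl3, was called lower (adjusted p = 0.0216 in limma), with an SD of 0.310 used in place of its own 0.693. The replicate numbers were not given as pairs in the labels. Deviations from the group means correlated at 0.0922, 0.269 and 0.321 between samples of the same number. Each sample correlated best with its own number, although Irf1-/- replicate 1 was at 0.0838 with WT replicate 2. Replicate 3 was the largest library of either genotype, and deviations from a mean of 3 samples are not independent. These values do not settle whether the samples were paired.

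The direction turned once the Y-linked level was a covariate, to 0.062 for Ccl4, 0.40 for Ccl20 and 0.027 for Xcl1. The values were the same, at 0.062, 0.40 and 0.027, without both WT libraries with Y-linked transcripts, an alternative chosen after seeing the data in which the lone WT sample is assumed to vary like the other group. In the larger libraries only, which allow no test, Ccl20 was at 0.44 and Xcl1 at 0.24. The cause was not tested. Ccl3 stayed below 0, from -1.36 to -0.10. With replicates 1 and 2 of each genotype, which differed less from each other than from replicate 3, averaged as 1 sample, also chosen after seeing the data, no member was called. Without Irf1-/- replicate 2 the log2 fold changes of Cxcl1, Cxcl2 and Cxcl3 were -0.21, -0.13 and -0.17. Among all genes tested, 1406 were called lower and 1293 higher, with ranges of 392 to 2116 and 392 to 1893 over the alternatives, lowest without both WT libraries with Y-linked transcripts and highest with the replicate block.

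Depth limits the low genes: 3 of the 10 had at most 4 reads in all, and 3 more had 11 to 35. The design holds 3 samples per genotype and no culture without IFN-γ.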
